A study of Vitis vinifera with 6 samples.

Results

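Young berries of the seedless mutant were compared with young berries of the seeded wild-type at stage E-L 27, when berries enlarge after fertilization. The wild-type is the grapevine (Vitis vinifera) wine cultivar Sangiovese, and the mutant is a spontaneous somatic variant of it whose berries hold no seeds. Each clone gave 1 mRNA-Seq library at E-L 27, from young berries of a single biological replicate whose replicate RNA extractions the authors pooled. The same clones also gave 1 library each from flowers at E-L 15, before fertilization, and from ripe berries at E-L 38. The labels name no treatment, and each group is 1 clone. All gene models with a mean of at least 1 RPM (uniquely mapped reads, scaled by the authors to the total of the library) over the 2 E-L 27 libraries were included, which made 18787 of 28059. The gene model just inside this limit had a mean of 1.0007 RPM, and the one just outside had 0.99992 RPM.

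The mutant E-L 27 library held 70331451 reads and the wild-type E-L 27 library 90292742, so that 1 read was 0.0142 RPM in the mutant and 0.0111 RPM in the wild-type. With 1 library a side the reads gave no replicate check, and no test was made. Every interval given with a ratio is a 95% exact conditional binomial (Clopper-Pearson) interval of the 2 read counts, and covers counting error only. In RNA of bulk berries, fewer cells of a type and less RNA per cell cannot be told apart. The authors sampled both clones on the same date, but compared stages within each clone, to limit differences from asynchronous sampling. The direct comparison made here lacks that safeguard, so that a difference in developmental timing cannot be told apart from a difference between the clones. Named genes of stamens and petals were below their E-L 15 level, and named ripe berry genes below their E-L 38 level, in both young berry libraries. RPM is not divided by gene length, so that levels are compared between libraries and not between genes. The reference genes of the study were close at E-L 27. SAND had 73.7 RPM in the mutant and 72.5 RPM in the wild-type, and GAPDH had 2519 RPM in the mutant and 2822 RPM in the wild-type.

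In a seeded grape the fertilized ovule enlarges inside the young berry, and its integuments become the seed coat while the berry wall grows by cell division and expansion. MADS-box transcription factors of the ovule, among them SEEDSTICK and TRANSPARENT TESTA16 in Arabidopsis, set the identity of the ovule and of the inner seed coat. Pectin-modifying enzymes and expansins change cell walls during growth, SWEET-type carriers of the MtN3 family move sugars across membranes, and ethylene response factors (ERF) are transcription factors that often respond to stress.

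For 5 of the genes described here, the oligonucleotides that the study designed for real-time PCR are shown, because they mark the transcripts that carry the comparison. SEEDSTICK, TRANSPARENT TESTA16, a pectate lyase and a FERONIA-type kinase were lower in the mutant, and ERF9 was higher. Each primer is written from its 5′ end, and no base is set in capitals.
SEEDSTICK forward, gene model on chromosome 18: aggcttcagcaagcaaacat
SEEDSTICK reverse: cattaagccgagatggagga
TRANSPARENT TESTA16 forward, gene model on chromosome 1: gtgatggagcagttcccatt
TRANSPARENT TESTA16 reverse: tactggagggtgaggtcctg
pectate lyase forward, gene model on chromosome 1: caatacgagcccacattgcg
pectate lyase reverse: ttcaggttccttctcgtgcc
FERONIA-type kinase forward, gene model on chromosome 3: tctcccatggaaggtctgtc
FERONIA-type kinase reverse: aagatcatcgacccccttct
ERF9 forward, gene model on chromosome 12: caacgaagtcctccccttcc
ERF9 reverse: cagcagcggaattcacaacg

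Most gene models had nearly the same level in the mutant and the wild-type. With 0.5 RPM added to each value, 17589 of the 18787 (93.6%) lay within 1.5-fold, and the log2 ratio (mutant over wild-type) had a median of -0.03. Past 2-fold, 368 gene models were lower in the mutant (1.96%) and 71 were higher (0.378%). The excess of lower genes was larger further out, with 97 lower and 6 higher past 4-fold, and 23 lower and 1 higher past 8-fold. The lower genes had a median of 1.51 RPM in the mutant and 6.91 RPM in the wild-type. The higher genes had a median of 9.70 RPM in the mutant and 3.95 RPM in the wild-type.

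**Figure D1:**
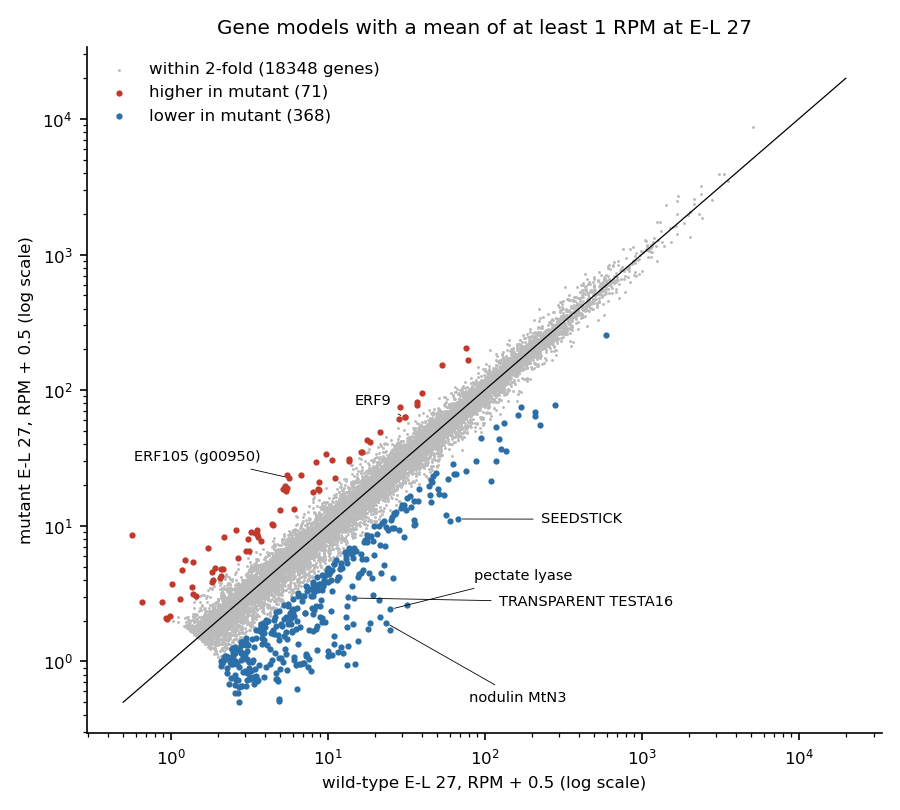
Level of each of the 18787 gene models in the mutant (vertical axis) against the wild-type (horizontal axis) at E-L 27, in RPM with 0.5 added, on log axes; the line marks equal levels. Blue points are the 368 genes lower in the mutant and red points the 71 higher, and most blue points lie at low levels in the mutant.

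The lower genes were mostly of low abundance. Of the 2508 genes with a mean of 1 to 3 RPM, 138 (5.50%) were lower and 21 (0.837%) higher, and of the 3720 genes with 3 to 10 RPM, 139 (3.74%) were lower and 18 (0.484%) higher. At 100 RPM or more, 7 of 2315 genes (0.302%) were lower and 3 (0.130%) higher. In the mutant 175 of the 368 lower genes had fewer than 100 reads. When the whole counting interval had to lie past 2-fold, 325 genes were lower and 62 higher.

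Names were at hand for 64 gene models, of which 35 passed the level filter. Most of them had been picked for how they changed in these same libraries, so that their direction is no independent evidence. Of the 35, 18 were lower in the mutant past 2-fold, 6 were higher and 11 lay within 2-fold, with a median log2 ratio of -1.03 beside -0.03 over all genes. The 29 that did not pass had at most 0.611 RPM in the mutant and 1.51 RPM in the wild-type. Of these 29, 23 had less in the mutant, beside 56.2% of all gene models with a read at E-L 27.

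**Figure D2:**
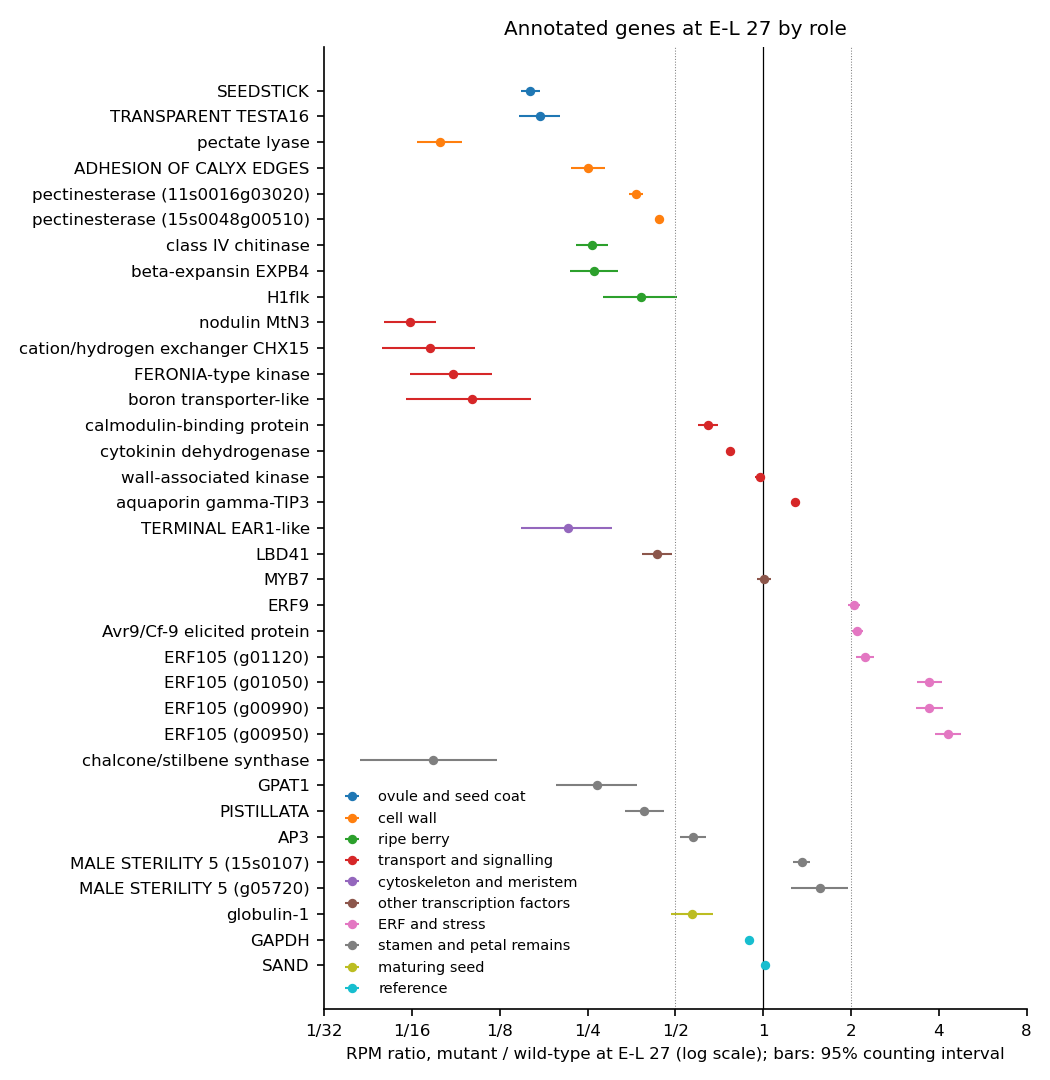
Ratio of mutant to wild-type RPM at E-L 27 for the 35 named genes that passed the level filter, grouped by role, on a log axis; bars are 95% counting intervals and dotted lines mark 2-fold. The ovule, cell wall and ripe berry genes lie left of the lower 2-fold line, and the 6 ERF and stress genes lie right of the upper one.

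Both MADS-box genes of the ovule and seed coat were lower in the mutant. SEEDSTICK (VIT_18s0041g01880), which acts in carpels, ovules and seeds, had 10.7 RPM (754 reads) in the mutant and 67.4 RPM (6084 reads) in the wild-type. It was therefore 6.29-fold lower in the mutant (95% interval 5.83 to 6.79). At the other stages the clones were close, with 9.82 RPM in mutant flowers and 9.45 RPM in wild-type flowers, and with 26.7 RPM in mutant ripe berries and 33.2 RPM in wild-type ripe berries. Only the wild-type E-L 27 library stood above 50 RPM among the 6.

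TRANSPARENT TESTA16 (VIT_01s0011g01560), which in Arabidopsis specifies the innermost layer of the seed coat, had 2.43 RPM (171 reads) in the mutant and 14.2 RPM (1279 reads) in the wild-type. It was 5.83-fold lower in the mutant (95% interval 4.96 to 6.87). In flowers and ripe berries it lay at or under 0.375 RPM in both clones, so that E-L 27 was the only stage with appreciable reads. AINTEGUMENTA (VIT_09s0002g01370), a regulator of organ and ovule growth in Arabidopsis, did not reach the level filter, with 0.256 RPM (18 reads) in the mutant and 1.33 RPM (120 reads) in the wild-type. Its ratio was 5.19-fold lower in the mutant (95% interval 3.15 to 9.06). In flowers it was close between the clones, with 1.06-fold more in the mutant.

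**Figure D3:**
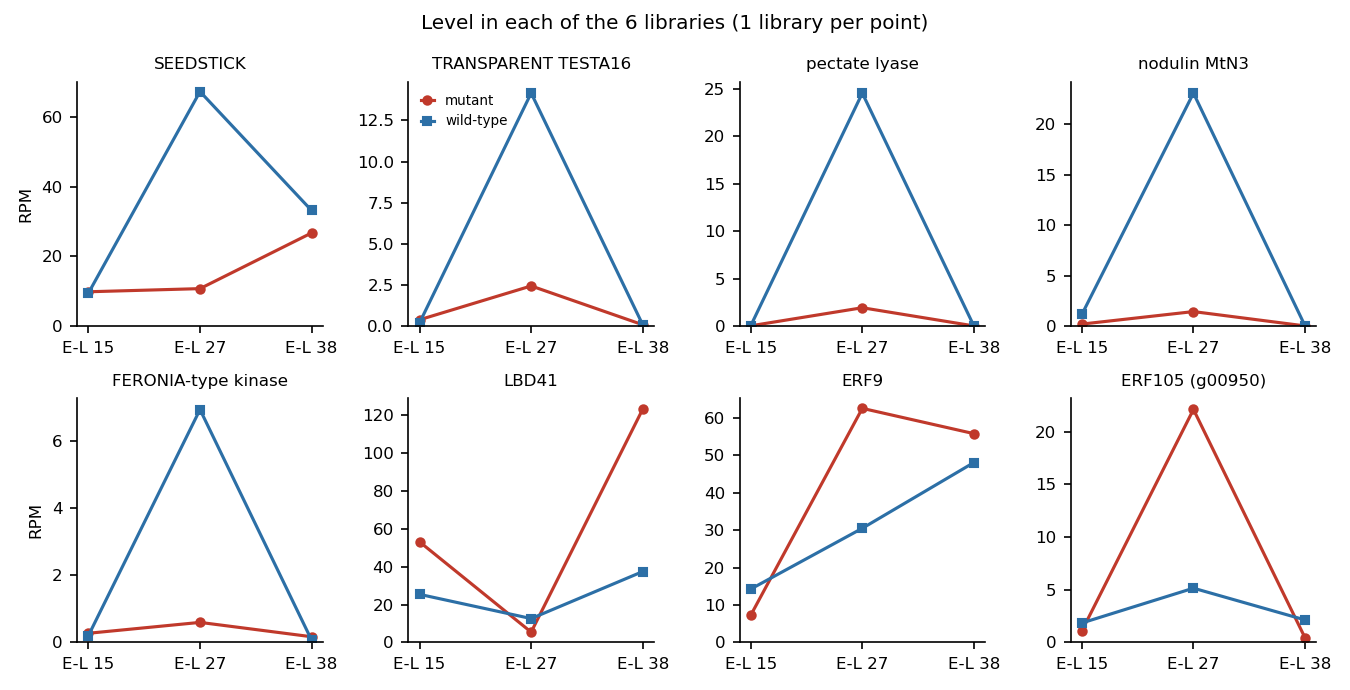
RPM of 8 genes in flowers (E-L 15), young berries (E-L 27) and ripe berries (E-L 38) of the mutant (red circles) and the wild-type (blue squares), 1 library per point, each panel with its own axis from 0. SEEDSTICK, TRANSPARENT TESTA16, the pectate lyase, the nodulin MtN3 and the FERONIA-type kinase peaked at E-L 27 in the wild-type with a far lower mutant point, while ERF9 and ERF105 were higher in the mutant at E-L 27.

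All 4 cell wall and cuticle genes that passed the level filter were lower in the mutant, with a median log2 ratio of -1.65. The pectate lyase (VIT_01s0026g01680), an enzyme that cleaves pectin, showed the widest gap, with 1.92 RPM (135 reads) in the mutant and 24.6 RPM (2218 reads) in the wild-type. This was 12.8-fold lower in the mutant (95% interval 10.8 to 15.3), and on ratios with 0.5 RPM added the gene ranked 10 from the lowest of 18787. In the 4 libraries of the other stages it had at most 0.0216 RPM.

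Both pectinesterases, which remove methyl groups from pectin, were also lower. VIT_15s0048g00510 had 74.9 RPM in the mutant and 171 RPM in the wild-type, 2.28-fold lower (95% interval 2.21 to 2.35). VIT_11s0016g03020 had 23.7 RPM in the mutant and 64.9 RPM in the wild-type, 2.74-fold lower (95% interval 2.59 to 2.89). Both were close between the clones in flowers, at 8.78 RPM in the mutant and 9.05 RPM in the wild-type for the first gene, and at a 1.11-fold lower level in the mutant for the second gene. ADHESION OF CALYX EDGES (VIT_09s0002g02210), which takes part in cuticle formation in Arabidopsis, had 3.88 RPM in the mutant and 15.4 RPM in the wild-type, 3.98-fold lower (95% interval 3.49 to 4.55). An alpha-expansin (VIT_08s0058g01200) below the level filter had no read in the mutant and 36 reads in the wild-type. Against a limit of 3 reads, with the wild-type count taken as exact, it was at least 9.35-fold lower.

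Transport and signalling genes were split. Of the 8 that passed the level filter, 4 were lower past 2-fold, 4 lay within 2-fold and 0 were higher. The nodulin MtN3 gene (VIT_17s0000g08110), of the SWEET family of sugar carriers, had 1.42 RPM (100 reads) in the mutant and 23.1 RPM (2085 reads) in the wild-type. It was 16.2-fold lower (95% interval 13.3 to 20.1) and ranked 4 from the lowest with 0.5 RPM added. In flowers it had 0.182 RPM (16 reads) in the mutant and 1.14 RPM (106 reads) in the wild-type, already 6.30-fold lower (95% interval 3.70 to 11.4). The cation/hydrogen exchanger CHX15 gene (VIT_10s0003g03030) had 0.469 RPM in the mutant and 6.51 RPM in the wild-type, 13.9-fold lower (95% interval 9.77 to 20.4).

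The FERONIA-type receptor kinase (VIT_03s0038g04340), whose Arabidopsis relative acts in pollen tube reception, had 0.597 RPM (42 reads) in the mutant and 6.94 RPM (627 reads) in the wild-type. It was 11.6-fold lower (95% interval 8.50 to 16.3), and in the 4 libraries of the other stages it had at most 0.273 RPM. A boron transporter-like gene (VIT_04s0008g04980) had 0.270 RPM in the mutant and 2.69 RPM in the wild-type, 9.96-fold lower (95% interval 6.24 to 16.8).

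The other members lay within 2-fold. The aquaporin gamma-TIP3 (VIT_06s0061g00730), a water channel of the vacuole membrane, had 1138 RPM in the mutant and 888 RPM in the wild-type, 1.28-fold higher in the mutant (95% interval 1.27 to 1.29). The wall-associated kinase (VIT_01s0026g01420) had 57.2 RPM in the mutant and 58.8 RPM in the wild-type, 1.03-fold lower with an interval that includes no difference (95% interval 0.986 to 1.07). A cytokinin dehydrogenase (VIT_18s0001g13200), an enzyme that breaks down cytokinins, had 111 RPM in the mutant and 144 RPM in the wild-type. A calmodulin-binding protein gene (VIT_00s1404g00010) had 14.6 RPM in the mutant and 22.6 RPM in the wild-type, 1.55-fold lower (95% interval 1.43 to 1.67). Below the filter, a gibberellin oxidase (VIT_04s0044g01520) had no read in the mutant and 71 reads in the wild-type, at least 18.4-fold lower, and it had no read at the other stages of either clone.

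Among regulators of growth, the TERMINAL EAR1-like gene (VIT_14s0219g00270), which encodes an RNA-binding protein of meristems, had 0.540 RPM in the mutant and 2.53 RPM in the wild-type. It was 4.67-fold lower (95% interval 3.30 to 6.77), whereas in flowers it had 21.6 RPM in the mutant and 20.3 RPM in the wild-type. MYB7 (VIT_04s0008g01800), a MYB transcription factor, had 30.2 RPM in the mutant and 30.1 RPM in the wild-type. A myosin-like XIK gene (VIT_09s0002g01980) and DTA2 (VIT_15s0046g03080) had no read in the mutant, against 62 and 79 reads in the wild-type, which put them at least 16.1-fold and at least 20.5-fold lower in the mutant.

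LBD41 (VIT_14s0006g02950), a LOB-domain transcription factor that responds to low oxygen in Arabidopsis, had 5.45 RPM in the mutant and 12.6 RPM in the wild-type at E-L 27, 2.31-fold lower (95% interval 2.06 to 2.61). At E-L 15 it had 53.1 RPM in the mutant and 25.4 RPM in the wild-type, and at E-L 38 it had 123 RPM in the mutant and 37.4 RPM in the wild-type. Its level was thus lower in mutant young berries but higher in mutant flowers and ripe berries.

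All 6 named ERF and stress genes were higher in the mutant, with a median log2 ratio of 1.46. ERF9 (VIT_12s0028g03270) had 62.5 RPM in the mutant and 30.5 RPM in the wild-type, 2.05-fold higher (95% interval 1.95 to 2.15), close to the threshold. An Avr9/Cf-9 elicited protein gene (VIT_12s0134g00240), named for a tobacco gene that responds to a fungal elicitor, had 77.1 RPM in the mutant and 36.7 RPM in the wild-type, 2.10-fold higher (95% interval 2.01 to 2.19). At E-L 15 both genes had less in the mutant, with 7.26 RPM in the mutant and 14.2 RPM in the wild-type for ERF9, and 9.69 RPM in the mutant and 17.7 RPM in the wild-type for the elicited gene.

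The other members of the group were 4 genes annotated as ERF105, a stress-responsive ERF in Arabidopsis, which lie close together on chromosome 16. VIT_16s0013g00950 had 22.1 RPM in the mutant and 5.15 RPM in the wild-type, 4.30-fold higher (95% interval 3.87 to 4.78), and ranked 6 from the highest with 0.5 RPM added. VIT_16s0013g00990 had 18.6 RPM in the mutant and 5.02 RPM in the wild-type, and VIT_16s0013g01050 had 23.3 RPM in the mutant and 6.29 RPM in the wild-type, both 3.71-fold higher. VIT_16s0013g01120 had 29.5 RPM in the mutant and 13.2 RPM in the wild-type, 2.24-fold higher (95% interval 2.08 to 2.40).

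These 4 genes belonged to a run of 19 consecutive gene models, 13 of which passed the level filter. Of the 13, 10 were past 2-fold higher in the mutant, between 2.24-fold and 5.18-fold, beside 0.378% of all genes. The run was picked after its values were seen, and the identities of the unnamed members were not used here. Summed over all 13, the level at E-L 27 was 195 RPM in the mutant and 86.6 RPM in the wild-type, a ratio of 2.25. Over the 10 genes picked for their ratio, it was 152 RPM in the mutant and 45.3 RPM in the wild-type at E-L 27, against 13.1 RPM in the mutant and 19.1 RPM in the wild-type at E-L 15. At E-L 38 the sum was 51.7 RPM in the mutant and 72.0 RPM in the wild-type, most of it from VIT_16s0013g01120, which had 49.1 RPM in the mutant and 63.7 RPM in the wild-type. All 10 had less in the mutant both in flowers and in ripe berries. Neighbouring copies of a gene can share reads, and since only uniquely mapped reads were counted, the split of reads among them is uncertain.

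**Figure D4:**
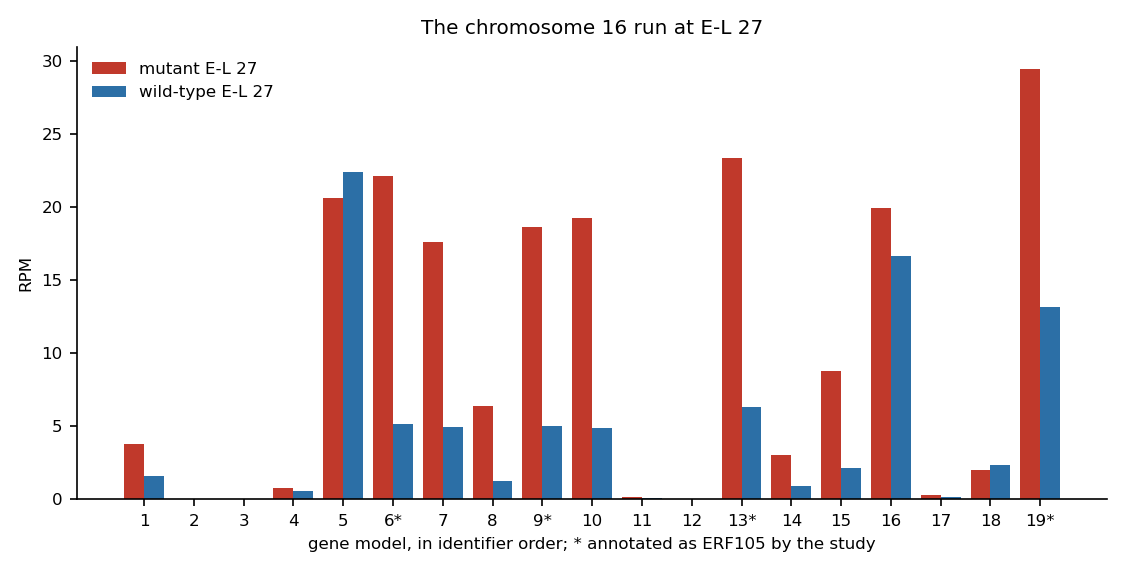
RPM at E-L 27 of the 19 consecutive gene models of the chromosome 16 run, in identifier order, in the mutant (red, left bar) and the wild-type (blue, right bar). Of the 13 that passed the level filter, 10 have a mutant bar more than 2 times the wild-type bar. These include the 4 marked as ERF105, while the other 3 of the 13 have bars of nearly the same height.

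Named genes of stamens and petals, whose remains a young berry could still carry, had less at E-L 27 than in flowers in both clones. Of the 11 on the list, 6 passed the level filter, of which 3 were lower in the mutant, 3 lay within 2-fold and 0 were higher. PISTILLATA (VIT_18s0001g01760), a MADS-box gene of petals and stamens, had 3.17 RPM in the mutant and 8.11 RPM in the wild-type, against 854 RPM in the mutant and 969 RPM in the wild-type in flowers. Its partner AP3 (VIT_18s0001g13460) had 7.95 RPM in the mutant and 13.8 RPM in the wild-type, 1.74-fold lower (95% interval 1.57 to 1.92).

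Among pollen and anther genes, a chalcone/stilbene synthase (VIT_15s0021g02170) had 0.227 RPM (16 reads) in the mutant and 3.09 RPM (279 reads) in the wild-type, 13.6-fold lower (95% interval 8.22 to 24.1). GPAT1 (VIT_12s0142g00040), an acyltransferase needed for pollen in Arabidopsis, had 0.697 RPM in the mutant and 2.58 RPM in the wild-type, 3.70-fold lower (95% interval 2.71 to 5.15). In flowers these genes already had less in the mutant, with 81.4 RPM in the mutant and 631 RPM in the wild-type for the synthase, and 12.5 RPM in the mutant and 49.6 RPM in the wild-type for GPAT1. Of the 11 on the list, 7 had less in the mutant, whatever the size, beside 56.2% of all gene models with a read at E-L 27. A MALE STERILITY 5 gene (VIT_15s0107g00550) ran the other way, with 26.7 RPM in the mutant and 19.7 RPM in the wild-type at E-L 27. In ripe berries it had 2.47 RPM in the mutant and 21.8 RPM in the wild-type. Another (VIT_07s0005g05720) had 2.56 RPM in the mutant and 1.64 RPM in the wild-type, 1.56-fold higher (95% interval 1.25 to 1.95). Below the filter, VIT_07s0005g05680 and SPOROCYTELESS (VIT_19s0014g03940) also had more in the mutant. The part of flower remains in the lower genes was not tested.

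Of the 10 genes of maturing seeds, 9 did not pass the level filter at E-L 27. These 9 had at most 0.0995 RPM in the mutant and 0.0775 to 0.532 RPM in the wild-type, and 5 of the 10 had no read in the mutant. Globulin-1 (VIT_07s0151g00640), a storage protein gene, passed with 211 reads in the mutant and 474 reads in the wild-type, 1.75-fold lower (95% interval 1.48 to 2.07). In the wild-type the E-L 27 level of the 10 genes was 0.163% to 1.16% of their E-L 38 level, which lay between 17.0 and 453 RPM.

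The 3 named genes that are abundant in ripe berries were lower in the mutant at E-L 27. A class IV chitinase (VIT_05s0094g00330), which cleaves chitin, had 4.19 RPM in the mutant and 16.2 RPM in the wild-type, 3.86-fold lower (95% interval 3.41 to 4.39). The beta-expansin EXPB4 (VIT_15s0021g02700), a wall-loosening protein, had 1.96 RPM in the mutant and 7.44 RPM in the wild-type, 3.79-fold lower (95% interval 3.15 to 4.59). H1flk (VIT_05s0020g04850) had 0.896 RPM in the mutant and 2.36 RPM in the wild-type, 2.63-fold lower (95% interval 1.98 to 3.55). At E-L 38 EXPB4 had 1396 RPM in the mutant and 1103 RPM in the wild-type, and the chitinase had 712 RPM in the mutant and 970 RPM in the wild-type.

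By the flower and ripe berry libraries alone, 19 genes had at least 100 RPM in both ripe berry libraries and less than 1 RPM in both flower libraries, EXPB4 and the chitinase among them. At E-L 27, 18 of the 19 had less in the mutant, whatever the size, beside 56.2% of all gene models with a read. Over all 19 genes the E-L 27 level was a median of 0.141% of the E-L 38 level in the mutant, where the lowest was 0, and a median of 0.814% in the wild-type, where the lowest was 0.120%. A further 28 genes, present in ripe wild-type berries at 10 RPM or more and under 1 RPM in ripe mutant berries and in flowers, had at least 0.106% of their ripe level in wild-type E-L 27, and 0 of them passed the level filter. Every gene of both groups thus had reads in the wild-type E-L 27 library, and the source of these reads was not tested. As an alternative, 0.2% of the E-L 38 count of the same clone was subtracted from each E-L 27 count. This gave 367 genes lower and 72 higher in the mutant. Of the 19 ripe berry genes, however, 10 lay under 0.2% of their E-L 38 level in mutant young berries, against 1 for the wild-type. For those 10 a subtraction of 0.2% leaves no mutant reads, so that the counts do not test the source of the reads.

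Other groups were set by the flower and ripe berry libraries in the same way. Flower genes, with at least 20 RPM in both flower libraries and under 1 RPM in both ripe libraries, numbered 475, and 438 of them passed at E-L 27. Of these 28 (6.39%) were lower in the mutant and 5 (1.14%) higher, beside 1.96% and 0.378% of all genes, with a median log2 ratio of -0.21. Genes under 1 RPM in all 4 libraries of the other stages, 358 of which passed, held 74 lower (20.7%) and 10 higher (2.79%). Of these 358, 265 had a mean of 1 to 3 RPM, where 15.5% were lower beside 5.50% of all genes of that level, and 82 had 3 to 10 RPM, where 32.9% were lower beside 3.74%. The pectate lyase, TRANSPARENT TESTA16, CHX15 and the FERONIA-type kinase were under 1 RPM in all 4 libraries of the other stages. These shares are descriptions, since genes are not replicates.

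The genes lower at E-L 27 were also compared between the clones at the other stages. Of the 368, 247 had a mean of at least 1 RPM at E-L 15, and 211 of these (85.4%) lay within 1.5-fold there, beside 97.3% of all kept genes with that level. At E-L 38, 184 had a mean of at least 1 RPM, and 80 of these (43.5%) lay within 1.5-fold, beside 85.8% of all kept genes with that level. The other genes were near absent there, so that the added 0.5 RPM keeps their ratio small. At E-L 15, 18 of them (4.89%) were again lower past 2-fold, beside 0.367% of all 18787 genes and 0.59% of the genes that passed the filter at E-L 15. At E-L 38, 73 (19.8%) were again lower, beside 4.86% of all 18787 genes and 6.38% of those that passed at E-L 38. Counting those expressed at that level alone, 13 of 247 (5.26%) were lower in mutant flowers and 61 of 184 (33.2%) in mutant ripe berries. The flower and ripe berry pairs share no library with the E-L 27 pair.

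Of the 71 higher genes, 3 (4.23%) were also higher in mutant flowers and 11 (15.5%) in mutant ripe berries. Over all 18787 genes these shares were 0.208% and 1.20%, and over the genes that passed the filter at each stage they were 0.207% and 1.47%. In the opposite direction, 8 of the lower genes (2.17%) were higher in mutant flowers and 11 (2.99%) in mutant ripe berries. Those shares were 0.208% and 1.20% over all 18787 genes. Of the higher genes, 0 were lower in mutant flowers and 8 (11.3%) in mutant ripe berries, beside 0.367% and 4.86% of all 18787.

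**Figure D5:**
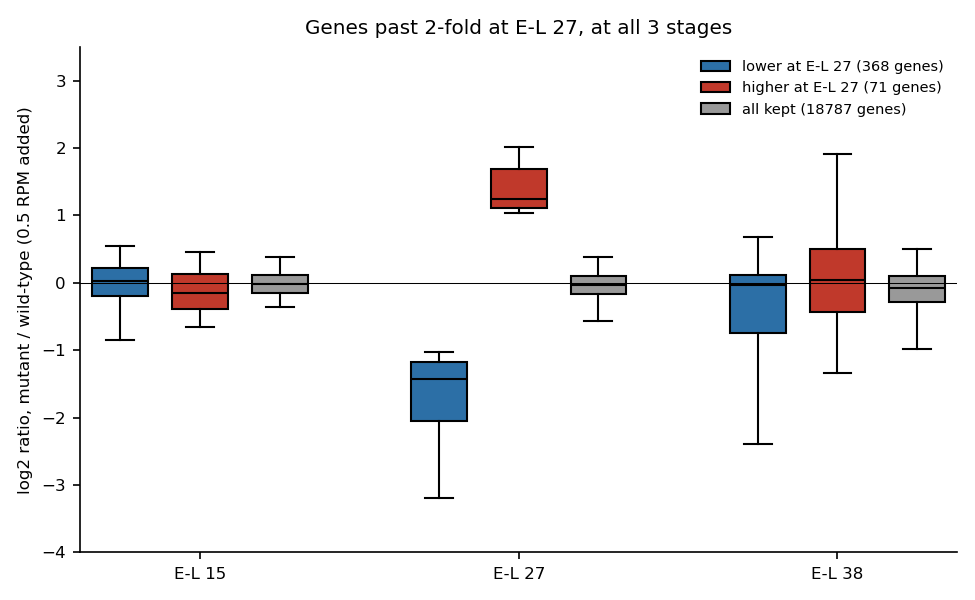
Log2 of mutant over wild-type RPM, 0.5 added to each, at each stage for the 368 genes lower (blue) and the 71 genes higher (red) at E-L 27 and for all 18787 (grey); boxes hold the middle 50% with the median, and whiskers reach the 5th and 95th percentiles. The E-L 27 boxes are apart because the genes were chosen there, while in flowers and ripe berries the medians of both sets lie between -0.15 and 0.04.

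Many of the lower genes were at their highest in the wild-type at E-L 27. Of the 368, 109 peaked at this stage in the mutant, against 184 in the wild-type, beside 35.5% and 34.6% of all genes. Compared with flowers, 68 of the 368 were past 2-fold higher in young berries of the mutant, against 211 in those of the wild-type, beside 8.91% (mutant) and 9.91% (wild-type) of all genes. The 71 higher genes showed the reverse, with 54 at their peak in mutant young berries, against 32 in those of the wild-type. Past 2-fold above the flower level were 49 of the 71 in the mutant, against 13 in the wild-type, beside the same shares of all genes. These counts use the E-L 27 libraries that chose the genes and are descriptions.

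The most extreme ratios of all belonged to genes without a name in the sources used here. With 0.5 RPM added, of the 30 lowest ratios 3 were of named genes, and of the 30 highest 3. VIT_11s0016g04750 had the lowest ratio on this scale, with 0.455 RPM (32 reads) in the mutant and 14.6 RPM (1314 reads) in the wild-type, with an interval of 22.5-fold to 47.0-fold lower. VIT_19s0015g00070 had the highest ratio on this scale, with 8.06 RPM (567 reads) in the mutant and 0.0665 RPM (6 reads) in the wild-type, 121-fold higher (95% interval 55.4 to 332). Among genes past 1.5-fold, 12 of the 15 largest RPM differences toward the mutant and 9 of the 15 toward the wild-type lay within 2-fold. VIT_19s0090g01000 had 8799 RPM in the mutant and 5098 RPM in the wild-type, 1.73-fold higher (95% interval 1.72 to 1.73), and VIT_10s0116g00560 had 1348 RPM in the mutant and 2034 RPM in the wild-type, 1.51-fold lower.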

How the data were processed

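Total RNA of flowers and berries was sequenced as poly(A) mRNA on an Illumina instrument, with 1 library per clone and stage. The authors used BWA to place reads on the gene models (v1 mRNA) annotated on the 12x grapevine genome, dropped reads with several positions with SAMtools, and deposited counts of uniquely mapped reads per gene model. They also deposited RPM values, which were recomputed here from the counts and found equal within 1e-08 RPM. Tool versions are not given in the sources used here.

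Ratios, intervals and counts of genes were computed with Python 3.11.15, numpy 2.4.6, scipy 1.17.1 and pandas 2.3.3. DESeq size factors and TMM factors came from R 4.3.3 with edgeR 4.0.16, used for scaling only. Genes whose mean over both E-L 27 libraries reached 1 RPM were kept, and counted as higher or lower past 2-fold with 0.5 RPM added. A count of 0 was set against a limit of 3 reads, which is 0.0427 RPM in the mutant and 0.0332 RPM in the wild-type. Calls and intervals were checked on simulated counts with known fold changes. The simulated counts held counting error only, so that the check does not cover variation between berry samples. Alternatives were other added values, scalings, filters, thresholds, equal depth and subtraction of a share of the E-L 38 counts.

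Named were the 64 genes to which the study's text and primer list give names, the reference genes among them, and of the 30 lowest, the 30 highest and the 15 largest differences each way the first gene. From unnamed genes no more than 2 higher and 2 lower were printed. Members and lists were chosen with earlier results of these data known. The reference table matched 0 of the identifiers, so that 26 lists defined by words in gene descriptions could not be applied. Each per-sample column was mapped to its sample. The study also ran real-time PCR on both biological replicates for some of the named genes. It reports that the changes between stages within each clone matched those of RNA-Seq, and that the replicates mostly agreed. Those PCR measurements were not analysed here.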

Additional observations from a re-analysis of the deposited data

Results flagged for a closer look

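Some named genes were past 2-fold in one direction between the clones at E-L 27 and past 2-fold in the other direction at another stage, with 0.5 RPM added. The difference between the stages was not tested, since each clone has 1 library per stage.

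LBD41 (VIT_14s0006g02950) had a log2 ratio of mutant to wild-type of -1.14 at E-L 27, against 1.05 at E-L 15 and 1.71 at E-L 38. PISTILLATA (VIT_18s0001g01760) had -1.23 at E-L 27 and 1.501 at E-L 38, where it had 1.03 RPM in the mutant and 0.0405 RPM in the wild-type. ERF105 (VIT_16s0013g00950) had 2.002 at E-L 27 and -1.49 at E-L 38, where it had 0.437 RPM in the mutant and 2.14 RPM in the wild-type. ERF105 (VIT_16s0013g01050) had 1.81 at E-L 27 and -1.02 at E-L 38, where it had 0.268 RPM in the mutant and 1.06 RPM in the wild-type.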

How the results depend on the processing

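No paired analysis was possible because each clone has 1 library per stage. With a mean of at least 10 RPM, 123 genes were past 2-fold (91 lower and 32 higher in the mutant), in place of 439 (368 and 71), since fewer genes were included. At 1.5-fold there were 1198 (899 lower and 299 higher), and at 4-fold 103 (97 lower and 6 higher). With 0.05 RPM added 108 genes were higher, and with nothing added 111. The 0.05 RPM also gave 32 of the lower genes again lower in flowers and 121 in ripe berries, in place of 18 and 73, and 7 of the higher genes again higher in flowers and 18 in ripe berries, in place of 3 and 11. At 10 RPM the median log2 ratio of the transport and signalling genes was -0.37 in place of -1.33, and that of the stamen and petal genes -0.17 in place of -0.99, over fewer genes.

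Other alternatives kept the counts of lower and higher genes within 1.5 times. DESeq size factors and TMM factors over 6 libraries raised each log2 ratio by 0.04 and 0.03, and left 326 and 332 of the lower genes and 68 and 69 of the higher genes past 2-fold. Chosen after seeing the data, subtraction of 0.4% of the E-L 38 counts gave 368 lower and 73 higher, and leaving out genes of at least 100 RPM at E-L 38 gave 318 and 68. With 0.2% subtracted, the class IV chitinase (VIT_05s0094g00330) had a ratio of mutant to wild-type of 0.196 in place of 0.259, globulin-1 (VIT_07s0151g00640) had 0.704 in place of 0.571, and EXPB4 (VIT_15s0021g02700) had 0 reads left in the mutant, against 454 for the wild-type, so that it has no ratio. No named gene past 2-fold changed direction with this subtraction. The scalings could not change the direction of such a gene, since they raised each log2 ratio by only 0.04 and 0.03. The subtraction took the same share from both clones, so that it does not test the source of the ripe berry reads. A single library a side limits all values, and a gene with few reads in the mutant has a wide interval.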

Other observations

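Besides the chromosome 16 run, 2 runs of neighbouring gene models held at least 5 genes lower in the mutant at E-L 27 within 25 consecutive models; they were chosen after their values were seen and their members have no name in the sources used here. On chromosome 2, 7 of the 10 models that passed the level filter among 11 with the prefix VIT_02s0025g were lower, beside 1.96% of all genes, with 0.284 to 11.8 RPM in the mutant and 2.09 to 35.6 RPM in the wild-type. On chromosome 5, 8 of the 12 that passed among 21 with the prefix VIT_05s0049g were lower, with 0.768 to 16.6 RPM in the mutant and 2.51 to 50.8 RPM in the wild-type.

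By chromosome, chromosome 5 held 35 lower genes among 1066 (3.28%) and chromosome 16 held 5 among 663 (0.754%), beside 1.96% of all genes. Of the 71 higher genes, 13 were on chromosome 16 (1.96% of its genes, beside 0.378% of all genes), 10 of them in the run described above.

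Across the 18787 genes, the log2 ratio of the clones at E-L 27 had a Pearson r of 0.13 with that at E-L 15 and of 0.11 with that at E-L 38, as a description across genes, which are not independent replicates.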
